A study of Mus musculus with 15 samples.

Results

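The earliest step of tissue dissociation was read in satellite cells, the stem cells of mouse skeletal muscle, by setting the 4 bulk RNA-seq libraries of the time point T15 against the 4 libraries of T0. These are 8 of the 22 bulk libraries of a time course with 6 time points, and they were chosen by their labelled time point. All 8059 genes of the deposited count table entered the comparison. The T0 cells came from tissue labelled intact and the T15 cells from tissue labelled dissociated, and both groups were fixed. The protocols in the labels name collagenase and dispase, enzymes that digest the matrix around cells, for dissociation, and PFA, which cross-links the cell contents, for fixation. The labels give no unit for the time points, which were taken as minutes, and they give no strain, age, sex or number of animals. Nothing in the sources used here says that libraries of a time point came from separate animals, so the p-values measure a spread between libraries, which may be technical. That spread was estimated over all 22 bulk libraries together, within their time points, and not from the T0 and T15 libraries alone. A fit on the T0 and T15 libraries alone is given further below. The labels do not say how cells for the bulk libraries were sorted. The other 9 samples, of single cells or nuclei, were not analysed here.

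Satellite cells rest between muscle fibres and their basement membrane and enter the cell cycle when the muscle is injured. Immediate early genes are genes that signalling can switch on without new protein synthesis, through transcription factors such as SRF, its TCF partners and CREB that are already present in the resting cell. Their products include the FOS and JUN proteins, which pair to form the AP-1 transcription factor, and proteins that switch signalling and mRNA stability back off.

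Totals over the listed genes ran from 2974294 to 9745758 counts at T0 and from 4852091 to 10482407 at T15. Levels are given as CPM, counts scaled to the library total corrected by TMM factors, and differences as log2 fold changes (T15 over T0) ± standard error (SE). A gene was called when its adjusted p (edgeR's quasi-likelihood F test with Benjamini-Hochberg adjustment over all 8059 genes) was under 0.05. The satellite cell markers were present in all 8 libraries. Pax7, the transcription factor that defines these cells, was measured at 1067 to 1523 CPM at T0 and at 1179 to 1647 CPM at T15. Of the markers of other cell types, 8 of 11 smooth muscle and pericyte markers, 7 of 12 fibro-adipogenic, 10 of 20 myofibre, 7 of 15 endothelial, 2 of 8 glial, 1 of 19 immune, 1 of 7 tenocyte and 0 of 6 erythroid markers are listed. Being listed does not by itself show that a marker was expressed. Within the fibro-adipogenic list, means at T0 ran from 9.35 CPM for Dcn to 1241 CPM for the fibrillar collagen gene Col3a1. Between them, Gsn had 937, Fbn1 445 and Dpt 181 CPM, while Col1a1 and Col1a2 had 27.6 and 21.9 CPM. Notch3 and Rgs5 of the smooth muscle list and Tek of the endothelial list also stand in the quiescence list of satellite cell genes. Which cells these counts came from was not tested. The libraries differed in a diffuse background, read as the median CPM per kb of exon over 5 long genes with no known role in these cells (Muc16, Mroh2a, Pclo, Ryr3 and Csmd1). Of 25 such genes chosen only these 5 are listed, and how the others would move the density is not known. Ryr3 had means of 361 CPM at T0 and 359 CPM at T15, against 37.4 to 78.9 CPM at T0 for the rest, so it may be expressed. The density is thus a rough measure. The background density was 3.28, 1.36, 4.32 and 1.77 in T0 libraries 0A to 0D, and 0.942, 0.735, 1.29 and 3.89 in T15 libraries 15A to 15D. Library 15D thus resembled the T0 libraries in this respect. Beside a mean T0 density of 2.68, Col1a2 and Mbp had 1.76 CPM per kb each at T0, and Pdgfrb and Tnc had 2.73 and 2.81. The presence of these markers was thus not resolved, while others, such as Cdh5 (4.58) and Cd68 (8.14), lay higher.

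Between T0 and T15, 54 of the 8059 genes were called (0.670%). Of these, 53 were raised (0.658%), led by AP-1 transcription factor genes, Egr1 and genes that end signalling or mRNA life. The 1 lowered gene (0.0124%) was the unassigned transcript Gm43362. A rise of at least 2-fold was measured for 37 of the raised genes. In 52 of the 53 raised genes every T15 library lay above every T0 library, an order seen in 1.96% of all genes, and Plk2 was the exception. The call was made on these same libraries and favours such an order, which is therefore not separate support. Over all genes the median log2 fold change was 0.01. Of the 8005 genes not called, 7600 (94.9%) had a 95% interval of the change that lay within 2-fold either way. Together the 53 raised genes took 0.332% to 0.375% of the counts in the T0 libraries and 1.51% to 2.04% in the T15 libraries. The direction of that difference also follows from how the genes were chosen.

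**Figure D1:**
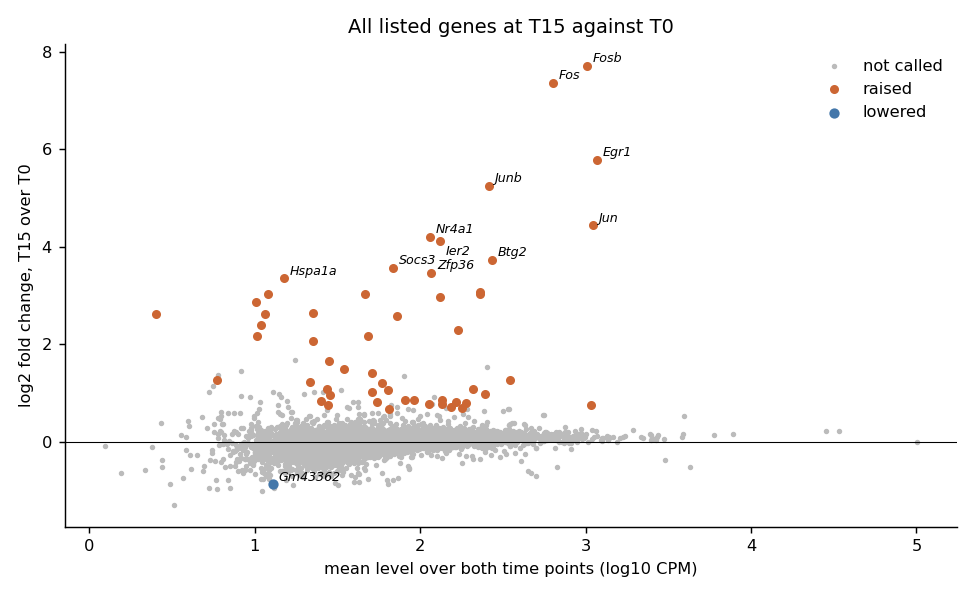
Each point is 1 of the 8059 listed genes, with its mean level over T0 and T15 (log10 CPM) on the horizontal axis and its log2 fold change (T15 over T0) on the vertical axis. The 53 raised genes (orange) reach 7.71 for Fosb, while the single lowered gene, Gm43362 (blue), has -0.87.

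The largest rises were those of the FOS genes Fosb and Fos, and the JUN genes rose with them. Fosb (chr7:19302696-19310051, minus strand, GRCm38) encodes a FOS partner of AP-1. It was counted at 8.47, 5.91, 18.2 and 7.82 CPM in T0 libraries 0A to 0D and at 2101, 1776, 2689 and 1559 CPM in T15 libraries 15A to 15D. The groups lay far apart, with 15C highest and 15D lowest at T15 (log2 fold change 7.71 ± 0.42 SE, adjusted p = 7.2e-11). Fos (chr12:85473890-85477273, plus strand), the founding member of the family, had 9.03, 4.87, 11.2 and 6.65 CPM at T0 against 1342, 1086, 1602 and 1050 CPM at T15. Every T15 library was again far above T0, with 15C highest and 15D lowest, for a change of 7.36 ± 0.44 (adjusted p = 2.48e-10). Per kb of exon Fosb went from 1.62 to 325 CPM and Fos from 3.37 to 540 CPM. The T0 level of Fosb per kb was thus under the mean background density of T0 (2.68 CPM per kb) and that of Fos close to it, so their starting levels were not resolved. After subtraction of that density Fos had a log2 fold change of 9.33, and Fosb could not be tested.

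Among the JUN genes, Jun (chr4:95049034-95052222, minus strand), the main AP-1 partner of FOS, already stood at 122, 92.7, 65.9 and 111 CPM in the T0 libraries. It reached 2505, 1837, 2400 and 1745 CPM at T15, where 15A and 15C were high and 15B and 15D low (4.44 ± 0.36, adjusted p = 3.96e-08). Junb (chr8:84974484-84978718, minus strand) started lower, at 10.4, 13.2, 19.3 and 11.2 CPM. Its T15 libraries held 596, 412, 630 and 380 CPM, with the same split of libraries (5.25 ± 0.29, adjusted p = 7.2e-11). Jund (chr8:70698949-70700616, plus strand), the JUN gene usually expressed in resting cells, rose from 49.8 ± 8.00 to 409 ± 112 CPM (mean ± SD, n = 4 libraries each; 3.04 ± 0.21, adjusted p = 1.69e-09). Per kb of exon Jun and Jund were the most abundant of the 5 at T0, at 30.6 and 29.9 CPM, and Jun was the most abundant at T15, at 665 CPM. The same list held 2 members that were not called. Fosl2 had 73.6 to 97.6 CPM at T0 and 117 to 164 CPM at T15, groups that did not overlap (0.78 ± 0.19, adjusted p = 0.0718). Fosl1 had 8.09, 2.09, 6.43 and 1.44 CPM at T0 and 1.08, 0.632, 0.750 and 5.33 CPM at T15, which overlap, with 15D at the level of T0 (-1.29 ± 0.70, adjusted p = 0.999, and -2.35, adjusted p = 0.224, without 15D). Per kb of exon Fosl1 had 2.22 CPM at T0 and 0.957 CPM at T15, under the mean background densities of 2.68 and 1.715. Its levels were thus not resolved, and the part of the background in its difference was not tested. In all, 5 of 7 listed FOS and JUN genes rose, beside 0.658% of all genes, and the list's median was 4.44. This and the other lists were written with earlier results of these data known, so their counts are descriptions.

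**Figure D2:**
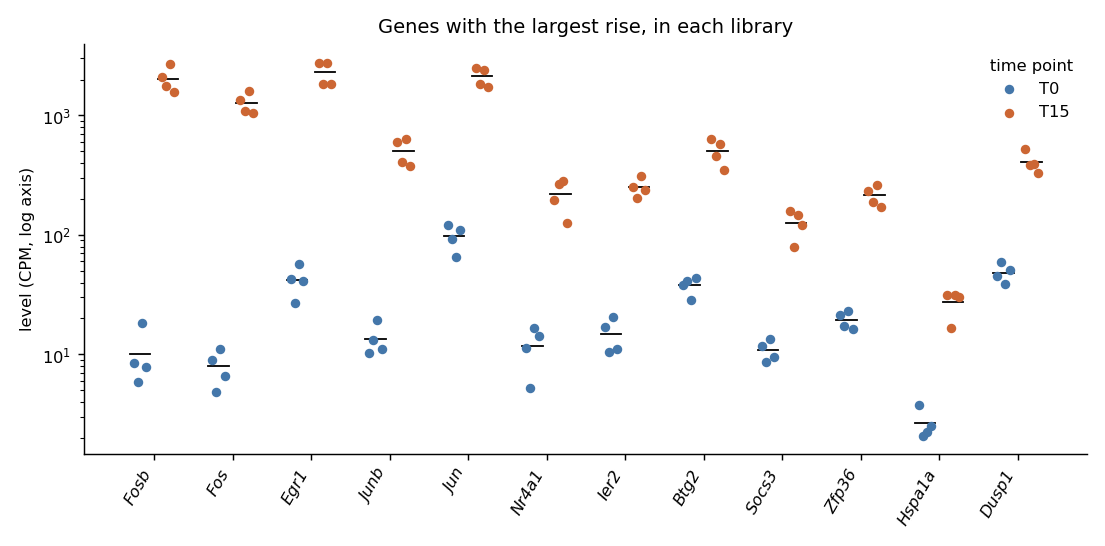
Levels (CPM, log axis) of the 12 genes with the largest log2 fold change, 1 point per library, with T0 in blue, T15 in orange and a bar at the mean of 4 libraries. In all 12 genes the T15 libraries lie above the T0 libraries, and the T15 libraries of Fosb sit between 1559 and 2689 CPM.

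Of the EGR and NR4A list, 3 of 8 listed genes rose, beside 0.658% of all genes, with a list median of 1.03. Egr1, a zinc finger factor downstream of MAP kinase signalling, had 42.5, 27.1, 57.0 and 41.2 CPM at T0 and 2746, 1845, 2769 and 1825 CPM at T15. The T15 libraries fell into 15A and 15C above and 15B and 15D below, all far above T0 (5.78 ± 0.28, adjusted p = 2.07e-11). Nr4a1 (chr15:101254269-101274795, plus strand), an orphan nuclear receptor, had 11.3, 5.22, 16.8 and 14.2 CPM at T0 and 196, 268, 282 and 126 CPM at T15. Here 15B was among the high libraries and 15D was lowest, without overlap with T0 (4.21 ± 0.35, adjusted p = 5.23e-08). Nr4a3, a relative of Nr4a1, rose from 27.9 ± 7.58 to 74.4 ± 16.4 CPM (1.42 ± 0.25, adjusted p = 0.00345). The uncalled members Egr2 (1.03 ± 0.32, adjusted p = 0.363), Egr3 (1.03 ± 0.36, adjusted p = 0.623) and Nr4a2 (0.57 ± 0.35, adjusted p = 0.999) had at most 22.9 CPM in any of the 8 libraries. The EGR corepressor genes Nab1 and Nab2 had 0.18 ± 0.11 and 0.07 ± 0.20 (adjusted p = 0.999 for each).

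Other early regulators contributed 6 raised genes of 38 listed, beside 0.658% of all genes, with a list median of 0.38. Ier2 (chr8:84661331-84662852, minus strand), a gene without introns whose product acts in the nucleus, had 17.1, 10.4, 20.4 and 11.1 CPM at T0 and 252, 203, 310 and 236 CPM at T15. All 4 T15 libraries were close together and far above T0 (4.12 ± 0.23, adjusted p = 7.2e-11). Atf3, a stress-induced repressor of the ATF family, rose by 2.65 ± 0.36 (adjusted p = 0.000103), from 3.30 to 10.4 CPM over the T0 libraries to 21.6 to 54.3 CPM. Klf4, a zinc finger factor linked to growth arrest, rose by 2.59 ± 0.34 (adjusted p = 6.37e-05), and 15A and 15C (160 and 171 CPM) stood above 15B and 15D (88.8 and 73.0 CPM). Smaller rises were called for Klf6 (0.86 ± 0.19, adjusted p = 0.031), for Id3, an inhibitor of bHLH factors such as MyoD (0.83 ± 0.16, adjusted p = 0.00779), and for the kinase gene Sik1, a target of CREB (0.81 ± 0.18, adjusted p = 0.0282). The C/EBP genes Cebpd and Cebpb had large but scattered differences. Cebpd was at 44.0, 224, 90.8 and 158 CPM at T0 and at 626, 357, 345 and 170 CPM at T15, where 15D fell within the range of T0 (1.53 ± 0.38, adjusted p = 0.0718). Cebpb, which had the smallest p of all uncalled genes, had groups that just missed overlap, with 61.6 CPM in 0D and 62.1 CPM in 15D (1.36 ± 0.32, adjusted p = 0.0625). Myc, a driver of growth that is an early gene in many cells, was at 105 to 179 CPM at T0 and at 134 to 233 CPM at T15 (0.33 ± 0.19, adjusted p = 0.999).

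Genes that shorten mRNA life formed the next group, with 4 of 13 listed genes raised, beside 0.658% of all genes, and a list median of 0.57. Btg2 (chr1:134075170-134079120, minus strand), an antiproliferative factor that recruits the deadenylase complex, had 38.4, 41.0, 28.5 and 44.0 CPM at T0 and 640, 456, 580 and 351 CPM at T15. Library 15A was highest and 15D lowest, both far above T0 (3.73 ± 0.23, adjusted p = 3.38e-10). Zfp36 (chr7:28376784-28380253, minus strand) encodes tristetraprolin, which binds AU-rich elements and speeds decay of many early mRNAs. It had 21.5, 17.4, 23.2 and 16.4 CPM at T0 and 234, 190, 263 and 170 CPM at T15, with no overlap (3.46 ± 0.22, adjusted p = 5.01e-10). Its relative Zfp36l1 was the more abundant of the pair at T0, at 68.3 against 5.65 CPM per kb, and rose by 1.28 ± 0.16 (adjusted p = 2.25e-05). Btg1, a relative of Btg2, rose by 1.09 ± 0.18 (adjusted p = 0.00152). The remaining family member Zfp36l2 had 224 to 336 CPM at T0 and 354 to 549 CPM at T15, also without overlap, but was not called (0.68 ± 0.26, adjusted p = 0.933).

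Among feedback inhibitors of signalling, Dusp1, Trib1 and Socs3 rose. Dusp1 (chr17:26505590-26562128, minus strand), a nuclear phosphatase that inactivates MAP kinases, had 45.0, 59.6, 38.8 and 50.6 CPM at T0 and 524, 383, 396 and 328 CPM at T15. Every T15 library was well above T0, with 15A highest (3.07 ± 0.17, adjusted p = 7.2e-11). Socs3 (chr11:117966079-117970047, minus strand), which blocks cytokine receptors that signal through STAT3, had 11.7, 8.69, 13.4 and 9.53 CPM at T0 and 158, 78.6, 147 and 122 CPM at T15. Here 15B was the low T15 library, still far above T0 (3.57 ± 0.31, adjusted p = 1.11e-07). Of the MAP kinase feedback list 2 of 16 listed genes rose, Dusp1 and the pseudokinase gene Trib1 (1.03 ± 0.21, adjusted p = 0.0105), with a list median of 0.26. This count and those of the STAT3 and NF-kB lists that follow stand beside 0.658% of all genes raised. Dusp6, a cytoplasmic ERK phosphatase, had groups that did not overlap (9.74 to 16.0 against 19.0 to 35.1 CPM) but was not called (0.99 ± 0.24, adjusted p = 0.0681). Of the STAT3 list 2 of 14 rose, Socs3 and the survival gene Mcl1 (0.98 ± 0.15, adjusted p = 0.000493), with a median of 0.08. The NF-kB and cytokine list had 3 of 21 raised and a median of 0.04. These were Nfkbiz, a nuclear IkB-like protein gene (1.50 ± 0.23, adjusted p = 0.00064), the chemokine gene Cxcl1 (2.40 ± 0.48, adjusted p = 0.0105) and Ier3 (2.63 ± 0.42, adjusted p = 0.000872), a survival gene at only 0.559 to 0.809 CPM at T0 and 2.08 to 5.89 CPM at T15. Nfkbia, which encodes the IkB alpha inhibitor, overlapped only through 15D, at 31.8 CPM (0.72 ± 0.20, adjusted p = 0.203). Further members with the largest uncalled difference of their list were Pim3 (0.85 ± 0.24, adjusted p = 0.203), a kinase gene of the STAT3 list, and Icam1 (-0.94 ± 0.63, adjusted p = 0.999), an adhesion gene. Both overlapped only through 15D. Icam1 was at 2.56, 0.993, 1.29 and 10.1 CPM in 15A to 15D against 3.13 to 10.3 CPM at T0, and without 15D it had -2.09 (adjusted p = 0.163). Per kb of exon Icam1 had 1.55 CPM at T0 and 0.858 CPM at T15, under the mean background densities of 2.68 and 1.715. Its levels were thus not resolved either.

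Of the genes that respond to SRF or YAP, factors tied to the actin cytoskeleton, 4 of 23 listed rose, beside 0.658% of all genes, and the median was 0.12. Ccn1, a secreted matrix protein gene, rose from 9.94 ± 1.90 to 82.2 ± 8.35 CPM (3.04 ± 0.24, adjusted p = 2.17e-08). The small GTPase gene Rhob rose by 1.21 ± 0.16 (adjusted p = 5.99e-05). Actg1 rose by 2.87 ± 0.30 (adjusted p = 2.67e-06) from a level of only 2.16 to 2.96 CPM at T0. This cytoplasmic actin gene has close relatives and pseudogenes, to which its short reads may have been lost or divided, so its level is uncertain. Its relative Actb, at 703 to 1026 CPM at T0, had 0.18 ± 0.15 (adjusted p = 0.999). Ccn2, a relative of Ccn1, had 13.6 to 22.4 CPM at T0 and 26.7 to 44.6 CPM at T15 without overlap and was not called (1.03 ± 0.26, adjusted p = 0.093).

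In the heat shock list 2 of 23 listed genes rose, the inducible HSP70 genes, beside 0.658% of all genes, and the median was 0.05. Hspa1a (chr17:34969190-34972156, minus strand) had 3.76, 2.09, 2.24 and 2.52 CPM at T0 and 31.3, 16.6, 31.6 and 30 CPM at T15, where 15B stood apart below the other 3 (3.36 ± 0.55, adjusted p = 0.00122). Hspa1b rose by 2.62 ± 0.54 (adjusted p = 0.0152). The Hspa1a and Hspa1b sequences are near-identical, so how reads divide between them is uncertain. Their cochaperone gene Dnajb1 had 18.3 to 22.9 CPM at T0 and 41.5 to 49.5 CPM at T15, groups that did not overlap, and was not called (1.06 ± 0.31, adjusted p = 0.235). The steady-state chaperone gene Hspa8 had 0.38 ± 0.21 (adjusted p = 0.999). Of 18 genes of the integrated stress and unfolded protein responses 2 rose, beside 0.658% of all genes, with a median of 0.12. Ppp1r15a, whose product brings a phosphatase to eIF2 and so restores translation, rose by 2.29 ± 0.19 (adjusted p = 3.93e-08), and Atf4, the main transcription factor of the integrated stress response, by 0.79 ± 0.13 (adjusted p = 0.00165). Sesn2, a target of Atf4 and p53, had -0.59 ± 0.39 (adjusted p = 0.999), at a T0 level of 1.64 CPM per kb, under the mean T0 background density of 2.68.

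Raised genes outside those groups had varied roles. The list counts given here stand beside 0.658% of all genes raised. The p53 and growth arrest list had 2 of 17 raised, Btg2 and the kinase gene Plk2 (0.87 ± 0.20, adjusted p = 0.0496), with a median of 0.18, and Gadd45b, a growth arrest gene, was not called (1.16 ± 0.35, adjusted p = 0.281). The glucocorticoid list had 2 of 20 raised, Dusp1 and the kinase gene Sgk1 (0.81 ± 0.17, adjusted p = 0.0168), and a median of 0.32. The typical glucocorticoid targets Fkbp5 (0.13 ± 0.25), Tsc22d3 (0.14 ± 0.38) and Zbtb16 (0.09 ± 0.21) had overlapping groups (adjusted p = 0.999 for each). Clock genes had 0 of 16 raised, beside 0.658% of all genes, and a median of 0.15, with Bhlhe40 at 0.69 ± 0.21 (adjusted p = 0.338), Per1 at 0.68 ± 0.19 (adjusted p = 0.213), both overlapping only through 15D, and Dbp at 0.16 ± 0.29 (adjusted p = 0.999). Antioxidant and metallothionein genes had 0 of 20 raised and a median of 0.14. At that share of all genes a count of 0 in lists of this size is no result about them. The ferritin light chain gene Ftl1 had the largest difference of the list (0.92 ± 0.22, adjusted p = 0.0666). Protein coding genes raised outside every list included Tubb4b, a beta-tubulin gene (1.07 ± 0.13, adjusted p = 2.04e-05), Ptp4a1, a phosphatase gene (1.23 ± 0.21, adjusted p = 0.00265), Tnfrsf12a, the receptor of the cytokine TWEAK (1.26 ± 0.22, adjusted p = 0.00263), and Sat1, a polyamine-degrading enzyme gene (1.09 ± 0.18, adjusted p = 0.00143). Smaller rises were measured for Eif4a1, a translation initiation helicase gene (0.86 ± 0.13), Ifrd1 (0.79 ± 0.14), the GTPase gene Gem (0.71 ± 0.16), Zfand5 (0.67 ± 0.15) and the ETS repressor gene Erf (0.97 ± 0.22), with adjusted p from 0.000547 for Eif4a1 to 0.0462 for Erf. Of the 8 uncalled genes with the smallest p, those not yet named were Rassf1 (0.47 ± 0.11, adjusted p = 0.0641), Sertad1 (1.45 ± 0.36, adjusted p = 0.0718) and Ppp1r10 (0.91 ± 0.23, adjusted p = 0.0767).

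**Figure D3:**
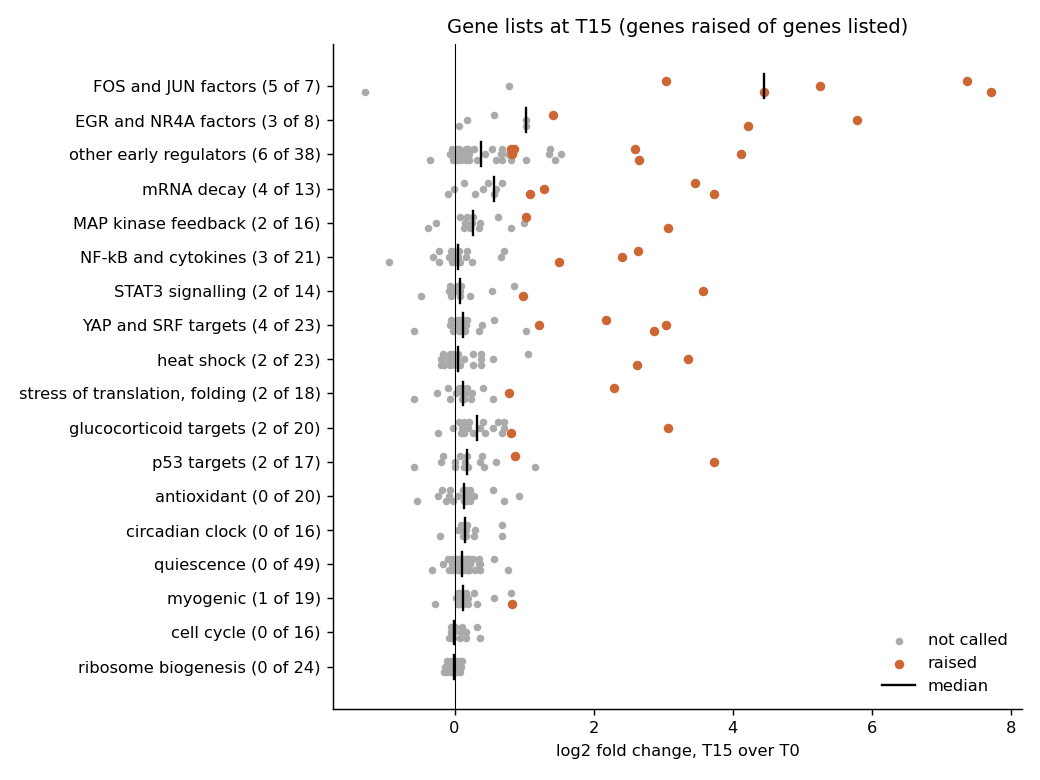
Log2 fold change (T15 over T0) of every listed member of 18 gene lists, 1 point per gene, raised genes in orange, other genes in grey, and a black bar at the list's median. The FOS and JUN factors have the highest median (4.44), and the cell cycle and ribosome biogenesis lists lie within 0.37 of 0.

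None of the listed satellite cell identity genes was called. Of 49 listed quiescence and surface genes 0 were called (median 0.11), of 16 cell cycle genes 0 (median -0.0045) and of 24 ribosome biogenesis genes 0 (median -0.01), beside 0.670% of all genes. With so small a share called, counts of 0 in lists of this size say little of these genes. Pax7 was at 1523, 1321, 1463 and 1067 CPM at T0 and at 1310, 1179, 1647 and 1528 CPM at T15, groups that overlap throughout (0.08 ± 0.16, 95% interval -0.25 to 0.41). Myf5, the early myogenic determination gene, had 0.19 ± 0.17 (95% interval -0.16 to 0.54), and Myod1, which marks activation, 0.03 ± 0.19 (95% interval -0.38 to 0.43). The adhesion and surface genes Cdh15 (0.09 ± 0.15), Itga7 (0.01 ± 0.17) and Vcam1 (0.07 ± 0.17) and the calcitonin receptor gene Calcr (0.18 ± 0.14) all had overlapping groups (adjusted p = 0.999 for each). Spry1, a brake on FGF signalling, had 0.37 ± 0.21, Notch1 0.17 ± 0.14 and its target Hes1 0.77 ± 0.31 (adjusted p = 0.999 for each). Hes1 had 40.7 to 55.9 CPM at T0 and 66.8 to 114 CPM at T15, without overlap. Of 19 myogenic genes Id3, named above, was the 1 called, its relative Id1 had 0.81 ± 0.31 (adjusted p = 0.882), and the list's median was 0.13. In the cell cycle list the largest difference was that of the inhibitor gene Cdkn1a (0.37 ± 0.33) and in the ribosome biogenesis list that of Rrp9 (-0.15 ± 0.25), with adjusted p = 0.999 for each.

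Markers of other cells in muscle were called in 0 of 7 endothelial, 0 of 7 fibro-adipogenic, 0 of 10 myofibre, 0 of 8 smooth muscle and pericyte, 0 of 2 glial, 0 of 1 immune and 0 of 1 tenocyte genes listed. With 0.670% of all genes called, a count of 0 in lists this short says nothing of the markers. The summed endothelial markers held 302, 214, 307 and 189 CPM in the T0 libraries and 185, 141, 222 and 297 CPM in the T15 libraries, and the list's median was -0.55, with Cdh5, a junction gene of endothelium, at -0.77 ± 0.52 (adjusted p = 0.999). Library 15D (22.7 CPM) was the only T15 library of Cdh5 within the range of T0 (10.8 to 26.5 CPM), the others held 4.72 to 9.32 CPM, and without 15D the change was -1.31 (adjusted p = 0.469). The order over libraries resembled that of the background density given above, with 0A, 0C and 15D high, and the part of that background in the difference was not tested. The summed myofibre markers held 841 to 1042 CPM at T0 and 730 to 1207 CPM at T15. Within that list Acta1, the skeletal muscle actin gene, differed by 1.69 ± 0.47 without overlap (6.83 to 9.39 against 23.4 to 28.4 CPM) and was not called (adjusted p = 0.172). The largest differences among the other marker lists were those of Tnc (-0.88 ± 0.66), Cd68 (0.75 ± 0.32), Pdgfrb (-0.43 ± 0.45), Col1a2 (-0.35 ± 0.42) and Mbp (-0.22 ± 0.42), with adjusted p = 0.999 for each. Without 15D Tnc had -1.61 (adjusted p = 0.488) and Pdgfrb -1.09 (adjusted p = 0.436), and without 0A Tnc had -0.26 (adjusted p = 1.0). Tnc and Pdgfrb stood close to the mean T0 background density, at 2.81 and 2.73 CPM per kb against 2.68. The part of the background in their changes was not tested. In bulk libraries fewer cells of a type and less RNA per cell cannot be told apart.

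Of the 54 called genes, 46 raised genes are protein coding by GENCODE, and the others are noncoding or unassigned transcripts. Gm37352 (chr8:84200869-84203049, plus strand) had 28.8, 30.4, 31.3 and 28.8 CPM at T0 and 251, 195, 310 and 183 CPM at T15, with the T15 libraries far above T0 (2.98 ± 0.22, adjusted p = 9.44e-09). Gm26532 (chr8:84208920-84209609, plus strand) had 10.7, 9.56, 8.66 and 6.11 CPM at T0 and 41.8, 28.6, 44.6 and 29.3 CPM at T15, and 15A and 15C were again the higher T15 libraries (2.06 ± 0.28, adjusted p = 0.000107). These transcripts lie on either side of the Mir23a, Mir27a and Mir24-2 hairpins on the same strand: Mir23a begins 5469 bases past the end of Gm37352, and Gm26532 overlaps the end of Mir24-2. The mature miRNAs of this cluster are shown because these are the products known from the locus, and they were not measured in these libraries. Their sequences are from RefSeq (GRCm38.p6), written 5′ to 3′ with the seed, bases 2 to 8, in capitals.
mmu-miR-23a-3p: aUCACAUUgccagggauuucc
mmu-miR-27a-3p: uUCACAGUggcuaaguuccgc
mmu-miR-24-3p: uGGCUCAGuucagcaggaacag
The 3 seeds differ from one another. Zswim4, the coding gene that follows on the opposite strand, had 0.19 ± 0.16 (adjusted p = 0.999).

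Gm26802 (chr7:19298260-19300770, minus strand) begins 1926 bases past the 3′ end of Fosb on the same strand. It had 3.95, 0.869, 5.03 and 1.53 CPM at T0 and 25.6, 19.1, 25.6 and 14.0 CPM at T15, and the low T15 library was 15D, as for Fosb (3.03 ± 0.51, adjusted p = 0.00172). Whether its reads come from a transcript of its own or from Fosb transcripts that run on was not tested. Gm26615 rose by 1.67 ± 0.26 (adjusted p = 0.000595) and 1200007C13Rik by 2.18 ± 0.26 (adjusted p = 1.89e-05). Neat1, the long RNA that builds nuclear paraspeckles, rose from 801 ± 35.1 to 1361 ± 187 CPM (0.76 ± 0.15, adjusted p = 0.00779), and Snhg8, a small nucleolar RNA host gene, by 0.76 ± 0.17 (adjusted p = 0.0282). The lowered transcript, Gm43362 (chr3:158033940-158036409, minus strand), had 18.8, 14.1, 19.6 and 14.7 CPM at T0 and 6.20, 9.75, 9.96 and 10.7 CPM at T15. All T15 libraries lay below all T0 libraries (-0.87 ± 0.17, adjusted p = 0.00767), an order seen in 0.844% of all genes and favoured by the call itself. Gm43362 lies inside the splicing factor gene Srsf11 on the same strand, so reads of the 2 genes may be mixed, and Srsf11 itself had 0.09 ± 0.13 (adjusted p = 0.999). Dusp1 and Junb overlap Ergic1 and Prdx2 on the opposite strand, and no source used here gives the strand setting of the counting. Ergic1 (0.04 ± 0.13) and Prdx2 (0.03 ± 0.15) were not called (adjusted p = 0.999 for each). The uncalled genes Srsf11, Zswim4, Ergic1, Prdx2, Actb, Hspa8, Myc, Egr3, Nr4a2, Nab1 and Nab2 were singled out after their values were seen.

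The raised genes were short and had few introns. Their median gene length was 4235 bases, against 29220 bases over the 8049 listed genes with an annotation, and their median number of introns was 2 against 9. Of the 53 raised genes 11 (20.8%) had no intron, among them Jun, Junb, Jund and Ier2, against 4.97% of all listed genes. At most 3 introns were found in 37 of 53 (69.8%), against 17.8%. Among protein coding genes alone, 65.2% of the raised and 13.8% of all had at most 3 introns. The raised genes with the most introns, 13 each, were Nfkbiz, Sgk1, Sik1 and Plk2.

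**Figure D4:**
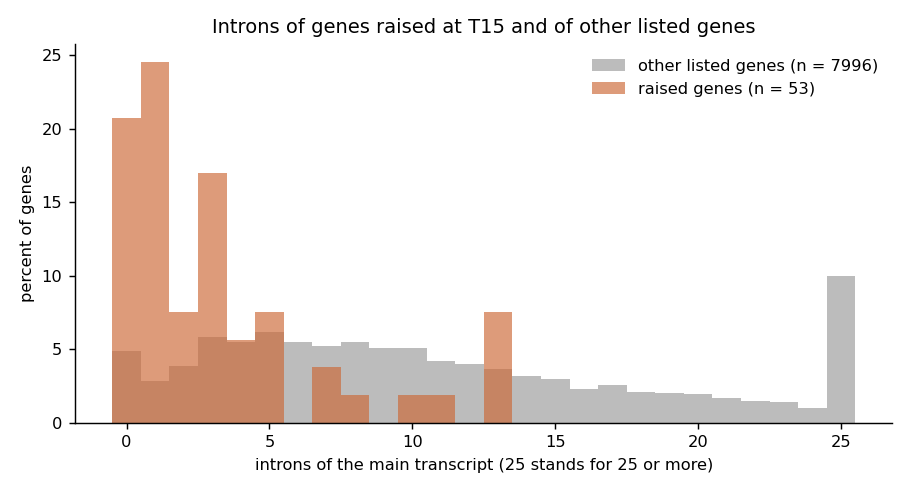
Share of genes (percent) by number of introns of the representative transcript, for the 53 raised genes (orange) and the 7996 other annotated genes (grey), where 25 stands for 25 or more. The raised genes crowd at the left, 69.8% of them with at most 3 introns.

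Promoters are shown for raised genes that hold motifs known from early genes. In RefSeq windows from 250 bases before to 50 bases after the start site, both strands were searched for short motifs. These were the CArG box (bound by SRF), TGACGTCA (bound by CREB and ATF factors), TGACTCA (bound by AP-1), TATAAA (as in the TATA box) and GGGGCGGGG (a GC box, bound by SP factors). Of the 53 raised genes 39 had a window, 44 windows in all, and the background was 7968 windows of 6140 listed genes. Egr1 and Ier2 were among the raised genes without a window, so their promoters were not searched. Sites more than 250 bases before a start site, for Fos as for any other gene, were not searched either. TATAAA was in 27.3% of the windows of raised genes against 6.76% of all windows, and TGACGTCA in 9.09% (Btg2, Dusp1, Plk2 and Ppp1r15a) against 3.31%. Not every TATAAA match lay where a TATA box would. Those of Junb, Ppp1r15a and Tubb4b were not wholly before the start site, and that of Gm26802 was on the opposite strand. Sgk1 had several windows, with matches 28 and 11 bases before different start sites. The CArG box was in 4.55% (Zfp36 and Actg1) against 1.53%, TGACTCA in 0.0% against 3.45%, and GGGGCGGGG in 15.9% against 23.3%. The 250 bases before the start site (GRCm38.p6, 5′ to 3′ on the gene's strand) are given for the largest riser with a TATA box, for a CArG box and for 3 of the genes with TGACGTCA, each with those motifs in capitals.
Fos (chr12:85473640-85473889, plus strand): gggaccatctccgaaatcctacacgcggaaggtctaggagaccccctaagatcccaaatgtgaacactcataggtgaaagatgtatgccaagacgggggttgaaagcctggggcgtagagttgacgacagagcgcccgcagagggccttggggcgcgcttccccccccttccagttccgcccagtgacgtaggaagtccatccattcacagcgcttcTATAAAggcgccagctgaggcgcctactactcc
Zfp36 (chr7:28379229-28379478, minus strand): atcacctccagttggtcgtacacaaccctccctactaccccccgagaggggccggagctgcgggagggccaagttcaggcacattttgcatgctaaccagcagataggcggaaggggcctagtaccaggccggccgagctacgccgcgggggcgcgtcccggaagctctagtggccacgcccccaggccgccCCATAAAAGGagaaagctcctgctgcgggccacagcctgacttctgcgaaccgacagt
Btg2 (chr1:134079156-134079405, minus strand): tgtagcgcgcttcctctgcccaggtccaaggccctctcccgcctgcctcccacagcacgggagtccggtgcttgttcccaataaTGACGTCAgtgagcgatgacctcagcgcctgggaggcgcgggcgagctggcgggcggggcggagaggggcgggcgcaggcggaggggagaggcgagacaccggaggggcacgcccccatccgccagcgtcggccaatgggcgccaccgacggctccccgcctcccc
Dusp1 (chr17:26508473-26508722, minus strand): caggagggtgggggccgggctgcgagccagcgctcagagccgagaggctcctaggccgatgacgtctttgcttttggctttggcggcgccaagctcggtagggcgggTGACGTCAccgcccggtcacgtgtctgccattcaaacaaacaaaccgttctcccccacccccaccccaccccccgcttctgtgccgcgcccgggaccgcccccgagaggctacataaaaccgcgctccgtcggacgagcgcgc
Ppp1r15a (chr7:45526269-45526518, minus strand): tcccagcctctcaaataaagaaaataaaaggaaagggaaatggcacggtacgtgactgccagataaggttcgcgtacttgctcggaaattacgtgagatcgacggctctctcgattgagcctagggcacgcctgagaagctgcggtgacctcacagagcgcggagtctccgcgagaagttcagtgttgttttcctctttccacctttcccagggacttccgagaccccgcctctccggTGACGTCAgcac
The TATA box of Fos begins 33 bases before its start site and the CArG box of Zfp36 58 bases before. The TGACGTCA of Btg2 begins 166, that of Dusp1 143 and that of Ppp1r15a 12 bases before the start site. These are matches of letters in a fixed window, which say nothing of binding in these cells.

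The T15 libraries differed among themselves in a way shared by many raised genes. Library 15C was the highest of the 4 in 32 of the 53 raised genes and 15A in 20, while 15D was the lowest in 25 and 15B in 21. The summed FOS and JUN list followed the same order, with 7245, 5605, 7943 and 5157 CPM in 15A to 15D against 253 to 285 CPM in the T0 libraries. Between the highest and the lowest T15 library this is a smaller gap than that to T0. The background density was highest in 15D (3.89 CPM per kb) and lowest in 15B (0.735), and its part in this order was not tested.

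At later time points of the same series, 0 of the 53 raised genes had their highest mean at T15: it fell at T30 for 8 genes, at T60 for 24, at T90 for 11 and at T120 for 10. A higher mean at T30 than at T15 was found for 49 genes. The steps after T15 were not tested here, and the later means are given as a description. Background was uneven over the series: the T30 libraries had a mean density of 4.669, while those of T60, T90 and T120 had 0.125, 0.3015 and 0.4071. Totals over the listed genes also differed, with 3876418 to 9873856 counts for T30 and 13006535 to 17938116 for T60. The part of these differences in the later means and in where they peak was not tested. Jun reached 2122 ± 386 CPM at T15, 3309 ± 534 at T30 (n = 3) and 334 ± 181 at T120, and Ier2 had 64.9% of its highest mean at T15. Dusp1 was nearly as high at T15 (408 ± 82.8 CPM) as at its highest point, T30 (452 ± 50.2). Tnfrsf12a stood at the other end, with 8.36 ± 1.26 CPM at T15 and 293 ± 69.9 at T120, so that T15 held 2.85% of its highest mean, and Trib1 held 6.14%. The genes with a lower mean at T30 than at T15 included Btg1, Sgk1 and Snhg8. Sgk1 went from 120 ± 17.0 CPM at T0 to 210 ± 47.5 at T15, 135 ± 14.3 at T30 and 757 ± 42.7 at T90. At T120, 0 of the 53 genes had a mean under that of T0.

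**Figure D5:**
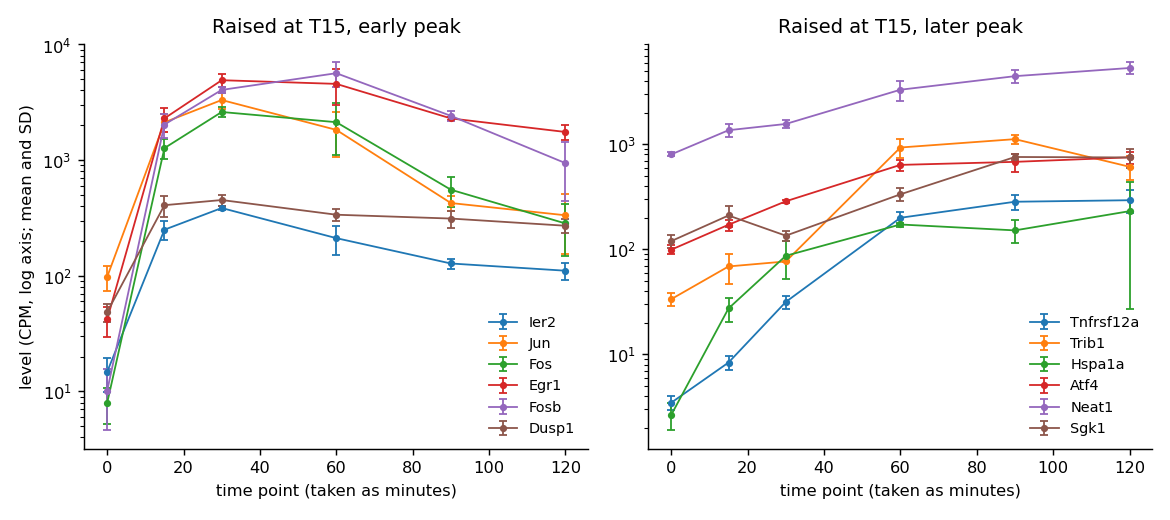
Mean level (CPM, log axis) with SD over the libraries of each time point (n = 4, or 3 at T30 and T90) for 12 genes raised at T15, against the time point taken as minutes. Genes on the left, such as Jun (2122 CPM at T15), peak at T30 or T60, and genes on the right, such as Tnfrsf12a (293 CPM at T120), at T90 or T120. Background density and library totals differed between the time points, and their part in these curves was not tested.

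The calls were not equally firm. Under all 17 alternative settings 22 genes were called, among them Atf3, Btg2, Ccn1, Dusp1, Egr1, Fos, Gm26532, Gm37352, Ier2, Jun, Junb, Jund, Klf4, Nfkbiz, Nr4a1, Ppp1r15a, Rhob, Socs3, Tubb4b, Zfp36 and Zfp36l1. Without any 1 library in turn, 40 of the 54 genes kept their call and 14 lost it at least once. Those lost included, without 0A, Trib1, Cxcl1, Hspa1b, Sgk1, Snhg8, Sik1, Klf6, Gem, Zfand5, Erf and Plk2 (adjusted p 0.0536 to 0.2). Without 0D they included Id3, Cxcl1, Hspa1b, Snhg8, Sik1, Klf6, Gem, Zfand5, Erf and Plk2 (0.0522 to 0.111). Leaving out 0B ended calls such as those of Sgk1, Snhg8, Sik1, Zfand5, Erf and Plk2 (0.0672 to 0.173), and leaving out 0C those of Hspa1b, Snhg8, Klf6, Gem, Zfand5 and Erf (0.0502 to 0.195). Of the T15 libraries, 15A ended the calls of Hspa1b, Sgk1, Klf6, Gem and Zfand5 (0.0639 to 0.264), 15B those of Sgk1, Sik1, Gem, Zfand5, Erf and Plk2 (0.0503 to 0.122), and 15C those of Sgk1, Snhg8, Sik1, Gem, Zfand5, Erf and Plk2 (0.06 to 0.332). Library 15D ended those of Snhg8 and Erf (0.0515 and 0.095), while without it 66 genes were called, 61 raised and 5 lowered. Other named genes were not called with all libraries but were called when a library was left out: without 15D Cebpb (adjusted p = 0.0139), Cebpd (0.0143), Nfkbia (0.0191), Dusp6 (0.039), Fosl2 (0.0395) and Pim3 (0.041), without 15B Sertad1 (0.00555), Gadd45b (0.0288) and Rassf1 (0.0366), without 0B Cebpd (0.015), and without 0C Rassf1 (0.0263). In a fit on the 8 libraries of T0 and T15 alone 43 genes were called, and 39 of them were shared with the 54. There Ier3, Btg1, Tnfrsf12a, Gm43362, Id3, Trib1, Sgk1, Snhg8, Sik1, Klf6, Gem, Zfand5, Erf and Plk2 had adjusted p from 0.0596 to 0.55. After subtraction of the background density, Eif4a1, Sat1, Atf4, Ptp4a1, Gm43362, Neat1, Id3, Sgk1, Snhg8, Sik1, Gem, Zfand5, Erf and Plk2 were not called (0.0628 to 1.0), and 8 genes, among them Fosb and Hspa1a, had too few counts left to test. With limma-voom, Gm26615, Hspa1a, Tnfrsf12a, Ptp4a1, Gm43362, Trib1, Cxcl1, Hspa1b, Snhg8, Zfand5, Erf and Plk2 were not called (0.0605 to 0.999). A total of 10 of the 53 raised genes had a T0 level per kb under the mean T0 background density, beside 4.3% of all listed genes. These were Ier3, Fosb, Tnfrsf12a, Ptp4a1, Cxcl1, Actg1, 1200007C13Rik, Hspa1b, Hspa1a and Gm26802, so their fold changes are uncertain in size. The size was also uncertain for other genes, which gave larger log2 fold changes after background subtraction: Junb 5.95, Nr4a1 5.95, Socs3 5.10, Atf3 4.92, Zfp36 4.16, Ccn1 3.90, Nfkbiz 2.93, Gm26615 2.79, Nr4a3 2.24 and Trib1 1.62. Of the genes below the background, Cxcl1 had 4.81 there and Ptp4a1 3.58.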

How the data were processed

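Bulk libraries of mouse muscle stem cells were made, per the labels' protocols, from fixed cells with an RNA kit for fixed tissue and a stranded low-input total RNA kit, and read as 65-base single reads. The authors deposited whole-number counts per gene, per the file headers, for 22 libraries. The submitters' processing notes name mm10 as the build and, among the tools, DESeq2 1.18.1, featureCounts 1.4.5-p3 and cutadapt 1.11. No source used here gives the aligner, annotation release or strand setting. The 22 normalized columns and the deposited fold changes were not used, and 0 columns of single libraries were left unmatched. The table lists 8059 genes, so totals over it are not sequencing depth. GENCODE vM21 (GRCm38) gave names and positions (1-based) for 8049 genes. Introns are those of a representative transcript (APPRIS principal, else the longest basic), and exon lengths are the union of a gene's exons.

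The test was the quasi-likelihood F test of edgeR 4.0.16 (R 4.3.3), on the deposited counts, with filterByExpr, TMM factors and Benjamini-Hochberg adjustment. All 22 libraries shared the fit, with time point as the only factor, and the common biological coefficient of variation was 0.192. The SE was taken as the absolute log2 fold change divided by the root of the F statistic. Alternatives were a fit on T0 and T15 alone, other scalings, DESeq2 1.42.0, limma-voom (limma 3.58.1), other filters, a block by library letter, subtraction of the background density, and leaving out each library. The scripts were tested on simulated data. Libraries of a time point differed by more than sampling noise, so none was taken as a library deposited again. That does not show that they are biological replicates, since the labels give 1 sample per time point. The comparison, the gene lists and the rule for named genes were chosen with earlier results of these data known. Called genes are named, except a few that are not reported here, with values per library for the 12 largest rises and for the gene that fell. Of uncalled genes, the 8 with the smallest p, the member of each list with the largest change, and a set of identity, glucocorticoid and clock genes are named.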

Additional observations from a re-analysis of the deposited data

Results flagged for a closer look

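Among the 108 groups of 4 libraries examined, 1 held a library whose gap to its nearest neighbour was over 0.829 of the group's range, while chance alone marks about 1 in 20 groups. Hspa1a at T15 had 16.61 CPM in library 15B, below 30 to 31.6 CPM in the other 3 (ratio 0.893).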

How the results depend on the processing

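Beside the 54 genes called, 53 raised and 1 lowered, DESeq2 size factors gave 54 (54 shared), no filter 54, library totals 54 (50 shared, 3 lowered), a DESeq2 Wald test 80 (54 shared, 2 lowered), limma-voom 41 (0 lowered) and a mean of at least 100 counts 44 (0 lowered). The fit on T0 and T15 alone gave 43 (39 shared, 0 lowered), and background subtraction 35 (34 raised, 30 shared), with 8 of the 54 genes not testable there. Leaving out 1 library gave 42 to 66 genes called, 41 to 61 raised and 1 to 5 lowered. Deviations from the time point means, over all genes, had same-letter correlations of -0.238, 0.131, 0.219 and -0.575 between T0 and T15. Of the 4 T15 libraries 1, 15C, correlated best with its own letter. These correlations cannot show whether a letter marks a shared animal or day. A replicate block by letter gave 32 genes called, 32 raised and 0 lowered, 30 of them shared. Among those not called there were Mcl1, Nr4a3 and Ifrd1, which were called in the other 16 alternatives. In these 17 alternatives 0 called genes changed sign. Library totals moved the median of all genes by -0.0786 (log2). Uncalled genes whose sign turned were, with library totals, Pax7 (-0.00590), Myod1 (-0.0540), Itga7 (-0.0617) and Vcam1 (-0.00731), and, after background subtraction, Pax7 (-0.106), Myod1 (-0.111), Cdh15 (-0.0607), Itga7 (-0.110), Vcam1 (-0.0694), Tsc22d3 (-0.0414), Zbtb16 (-0.0568) and Pdgfrb (1.20). The cause was not tested. Leaving out 1 library gave ranges of log2 fold change that include 0: Rrp9 -0.416 to 0.0797, Mbp -0.517 to 0.0293, Pax7 -0.0288 to 0.154, Myod1 -0.0843 to 0.127, Itga7 -0.0929 to 0.0839, Vcam1 -0.0694 to 0.211, Fkbp5 -0.0701 to 0.383, Tsc22d3 -0.186 to 0.454 and Zbtb16 -0.0297 to 0.234.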
